A study of Mus musculus with 2 samples.

Results

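The Wnt pathway genes *Sfrp1*, *Sfrp2*, *Dkk3*, *Fzd3*, *Fzd5*, *Wls*, *Axin2*, *Lef1*, *Tcf7l1* and *Tcf7l2* were followed across both sort gates of the E14.5 mouse retina and across the cell groups within them. They were taken by symbol from the 28692 genes listed for both libraries. All 10 were found, and each had at least 1 UMI in each library. The cells came from retinas of *LHX4::GFP* embryos (Tg(Lhx4::EGFP)KN199Gsat/Mmucd), heterozygous for an inserted bacterial artificial chromosome in which *Lhx4* regulatory sequence drives EGFP. Both gates carried the transgene. The retinas of 2 litters were pooled, dissociated and sorted, and 1 droplet library was made from the GFP+ cells and 1 from the GFP− cells, so that no value below has a replicate and no test between groups was made. The reporter is active in early cone photoreceptors, and the GFP− gate holds the other cells of the same retinas.

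A Wnt ligand leaves its cell with the help of the carrier Wntless, the product of *Wls*, and binds a Frizzled receptor such as Fzd3 or Fzd5 on the receiving cell. In the β-catenin branch this stops the Axin complex from destroying β-catenin, which then joins transcription factors of the TCF/LEF family (Lef1, Tcf7l1, Tcf7l2) at target genes. *Axin2* is both a member of the destruction complex and a widely used target gene, so that its transcript serves as a readout of the branch. The secreted Frizzled-related proteins Sfrp1 and Sfrp2 bind Wnt ligands outside the cell, and Dkk3 is the divergent member of the Dickkopf family of secreted antagonists. In the embryonic eye this pathway is best known from the ciliary margin, where it acts at the edge of the neural retina, and from the retinal pigment epithelium.

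In GRCm38 coordinates (GENCODE vM21, matched by Ensembl identifier) all 10 are protein-coding genes. *Sfrp1* (ENSMUSG00000031548) lies at chr8:23411502-23449632 and *Sfrp2* (ENSMUSG00000027996) at chr3:83766321-83774316, both on the plus strand. *Dkk3* (ENSMUSG00000030772) lies at chr7:112116017-112159057 on the minus strand. The receptors *Fzd3* (ENSMUSG00000007989) at chr14:65192449-65262463 and *Fzd5* (ENSMUSG00000045005) at chr1:64730558-64737751 are on the minus strand, and *Wls* (ENSMUSG00000028173) is at chr3:159839672-159938664 on the plus strand. *Axin2* (ENSMUSG00000000142) is at chr11:108920349-108950783 and *Lef1* (ENSMUSG00000027985) at chr3:131110471-131224356, both on the plus strand. *Tcf7l1* (ENSMUSG00000055799) is at chr6:72626378-72789254 on the minus strand and *Tcf7l2* (ENSMUSG00000024985) at chr19:55741820-55933654 on the plus strand.

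Because 3 of these genes encode factors that bind the TCF/LEF motif, the RefSeq promoters of the members (GRCm38.p6, 250 bases before to 50 after a start) were searched for it on both strands, written as CTTTGAA or as CTTTGAT, or else as CTTTGTA or as CTTTGTT. Promoters were listed for 7 of the 10 members, 11 windows in all, and 2 windows held a match, against 16.9% of all 32851 windows in the table. Those stretches are shown with the match in capitals, as the only windows of the members that held one. The first is on the opposite strand of *Lef1* and the second on the same strand as *Tcf7l2*. Both windows belong to internal starts, far inside the genes, whose annotated bounds begin at chr3:131110471 and chr19:55741820. They are thus not at the outermost starts of these 2 genes.
Lef1, chr3:131156137-131156163, plus strand: aacctcagaaTACAAAGtaggattgca
Tcf7l2, chr19:55895297-55895323, plus strand: aaatatcaggCTTTGTTcttttgattg
The listed windows of *Axin2*, *Sfrp2*, *Fzd5*, *Wls* and *Tcf7l1* did not hold these letters, and *Sfrp1*, *Dkk3* and *Fzd3* had no window in the table.

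The values come from cells in which between 250 and 3500 genes were seen and mitochondrial transcripts made up less than 0.25 of all UMIs. The GFP+ library kept 3689 such cells, with 15503658 UMIs in total and a median of 3894, and the GFP− library 3389, with 30094636 UMIs and a median of 8848. The limit of 3500 genes removed 39 GFP+ and 1055 GFP− cells. UMIs (unique molecular identifiers, each counting 1 captured transcript) were summed over the cells of a group and are given per 1000000 UMIs of that group (CPM). The intervals are exact, at 95%, and cover counting error only. The kit reads transcript 3′ ends, so a CPM is not divided by gene length, and levels are compared between groups for 1 gene, not between genes. Cells were placed in groups by UMIs of marker genes, none of which is a member. A list had to reach 3 UMIs from at least 2 of its genes, and cone, ganglion and amacrine/horizontal lists went before the *Otx2*/*Crx* precursor, neurogenic and progenitor lists. By this rule 3603 of the kept GFP+ cells (97.7%) were cones, and their summed cone list (*Gngt2*, *Gnb3*, *Thrb*, *Rxrg*, *Pdc*, *Gnat2*) stood at 4354 CPM against 4.08 CPM in GFP− progenitors. The other GFP+ groups were small, with 38 precursors, 18 progenitors and 12 amacrine/horizontal cells. The GFP− gate held 1788 progenitors, 543 neurogenic cells, 345 ganglion cells, 308 amacrine/horizontal cells, 80 precursors and 67 cones. Of the lists for cells from outside the neural retina, mesenchyme was at 0 in GFP+ cones (4 of 4 genes). The pigment epithelium list summed to 8.30 CPM there and 0.0600 CPM in progenitors (4 of 5 and 1 of 5 genes with UMIs), and the microglia list to 27.4 and 0.180 CPM, with *C1qb* and *Csf1r* at 0 in cones. The endothelial list summed to 5.75 CPM in GFP+ cones, 55.4 CPM in progenitors and 305 CPM in amacrine/horizontal cells. Its gene *Cdh5* had no UMI in any kept cell of either gate, and the other 3 genes had UMIs in each of these groups. The part of cells from outside the neural retina in the results was not tested. The libraries shared 20 barcodes, 15 of them among kept cells.

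Between the gates, 6 of the 10 members were at least 2-fold lower in GFP+ cells, 2 at least 2-fold higher, and 2 between these limits. Among all 15236 genes with at least 10 UMIs over both libraries, 16.8% were lower and 23% higher by that much. The members were chosen with earlier results of these data known, so their counts are a description and not a test. The median log2 ratio, GFP+ over GFP−, was −1.51 over the members and 0.30 over all genes. Placing GFP+ cones beside GFP− progenitors gave 7 members lower and 2 higher, where 15.9% of 14555 genes were lower and 29.3% higher. The members' median was −2.06 there, and that of all genes 0.40. The secreted inhibitors, *Fzd5* and the 3 TCF/LEF genes made up the lower side, *Axin2* and the barely detected *Wls* the higher side, and *Fzd3* stayed within 2-fold.

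**Figure D1:**
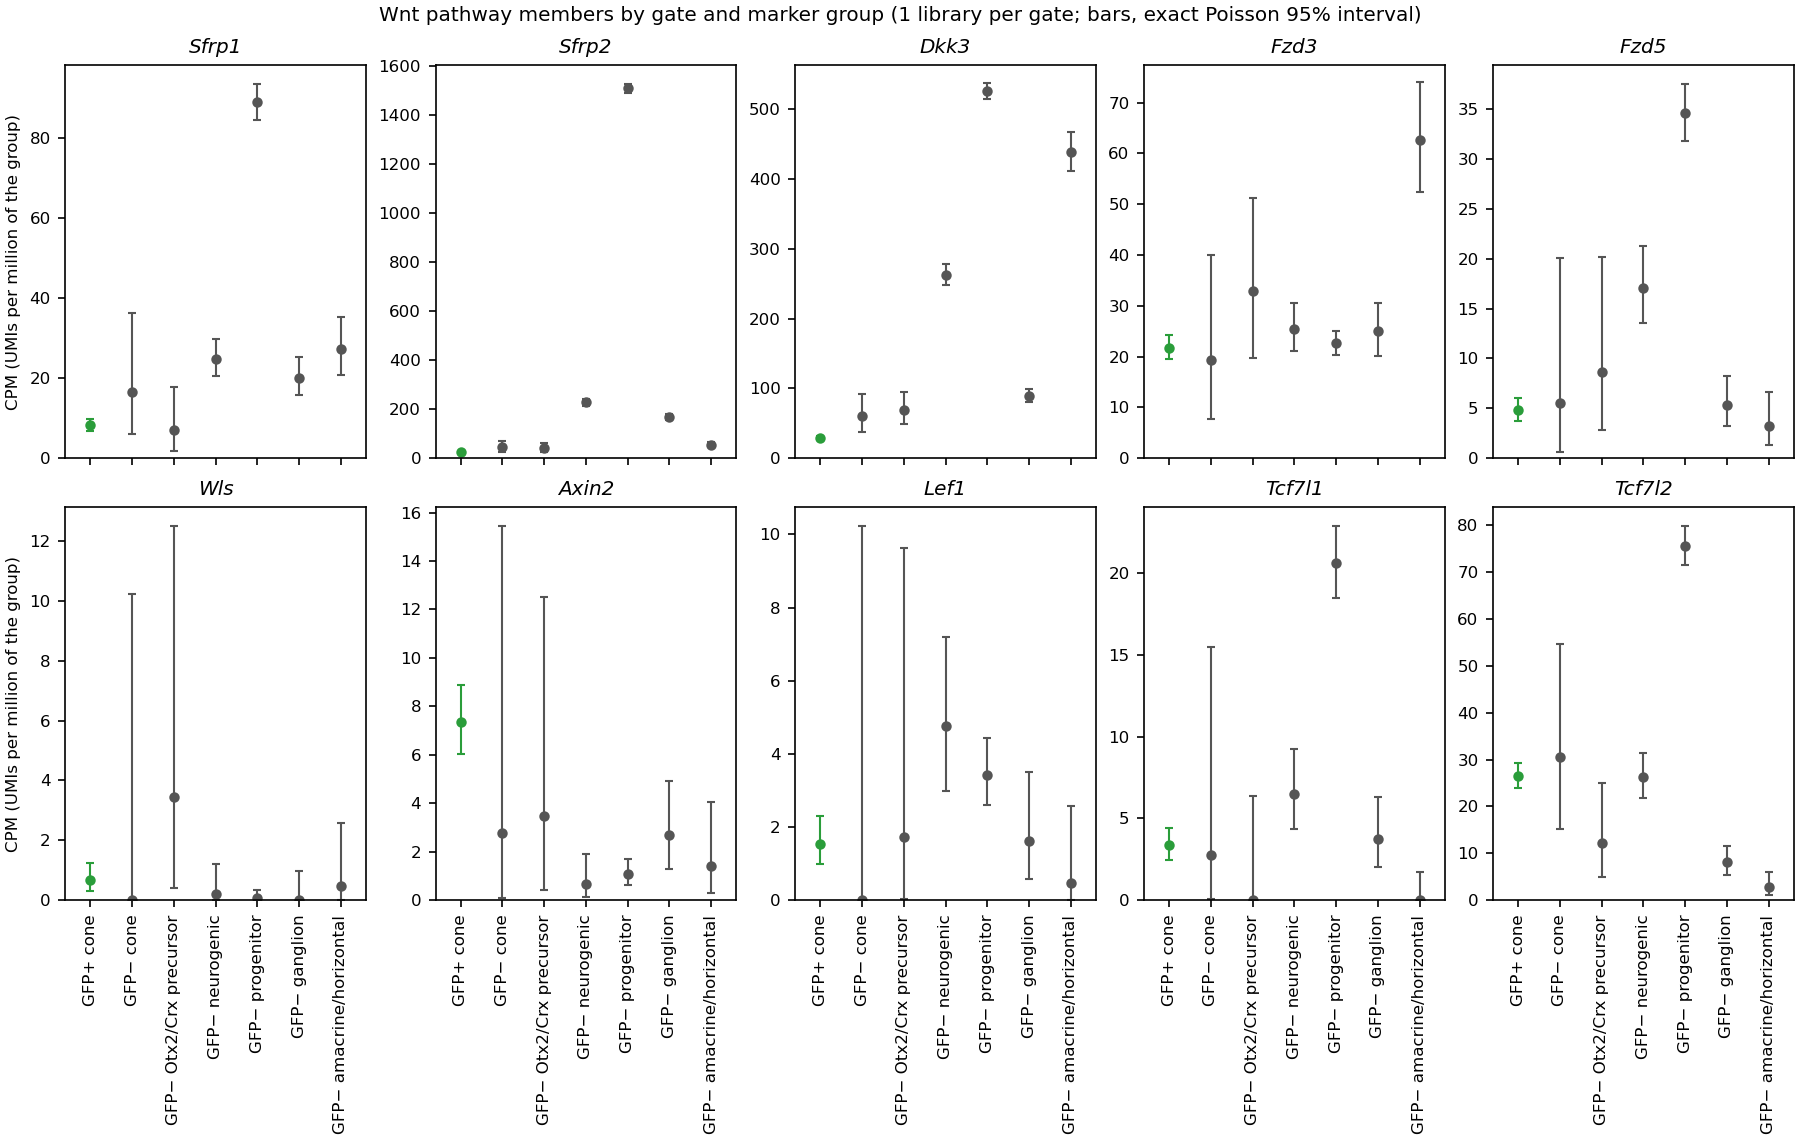
Level of each member in the 7 named groups with at least 50 cells (vertical axis, CPM from 0, with a separate scale per gene), GFP+ cones in green and GFP− groups in grey, with exact Poisson 95% intervals. *Sfrp1*, *Sfrp2*, *Fzd5*, *Tcf7l1* and *Tcf7l2* peak in progenitors, *Dkk3* in progenitors and amacrine/horizontal cells, *Fzd3* in amacrine/horizontal cells, and *Axin2* in GFP+ cones.

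Of the secreted inhibitors, *Sfrp2* showed the widest range. It stood at 39.2 CPM (607 UMIs, 36.1 to 42.4) in the GFP+ library and 916 CPM (27557 UMIs, 905 to 927) in the GFP− library, 23.4-fold lower in GFP+ (21.6 to 25.4). Progenitors carried it at 1508 CPM (25138 UMIs), with a median of 12 UMIs per cell and a maximum of 70. GFP+ cones carried it at 23.8 CPM (355 UMIs, 21.4 to 26.4), 63.5-fold lower (57.2 to 70.7). This was the lowest level among the 7 named groups with at least 50 cells. Of the 355 UMIs, 47 lay in 4 cones that also passed the progenitor list. Without these 4 cells, a split chosen after the values were seen, GFP+ cones had 20.7 CPM (18.4 to 23.1). With each cell thinned to 3200 UMIs, at least 1 *Sfrp2* UMI was found in 91.0% of progenitors (89.5 to 92.3%) and in 6.90% of GFP+ cones (6.03 to 7.86%), against 97.1% and 8.08% before thinning. Within the GFP+ library the 18 progenitors held 215 of the 607 UMIs, at 1308 CPM, close to the level of their GFP− counterparts.

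Between these ends, *Sfrp2* stood at 229 CPM (1058 UMIs) in neurogenic cells, which carry *Atoh7*, *Olig2*, *Neurog2* or *Dll1*. Many of these were cycling by their transcripts, as 318 of 543 passed the mitotic list, which summed to 1505 CPM in them and 924.5 CPM in progenitors. It was 168 CPM (625 UMIs) in ganglion cells, 53.8 CPM (116 UMIs) in amacrine/horizontal cells, 41.5 CPM (24 UMIs) in GFP− precursors and 44.4 CPM (16 UMIs) in GFP− cones. These last 3 did not differ from one another beyond counting error. Part of the neurogenic and ganglion levels came from cells that also passed the progenitor list, 227 of 543 and 34 of 345. These 34 ganglion-group cells carried *Sfrp2* at 1204 CPM. Without such cells, the level was 78.4 CPM (199 UMIs) in neurogenic cells and 56.2 CPM (189 UMIs) in ganglion cells, 19.2-fold (16.7 to 22.2) and 26.9-fold (23.3 to 31.1) below progenitors. As log2 ratios these are −4.27 and −4.75, in place of −2.72 and −3.17 for the whole groups. That split was chosen after the values were seen.

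*Sfrp1*, a close relative of *Sfrp2*, was also highest in progenitors, with smaller ratios to the other groups. Its level was 8.84 CPM (137 UMIs) in the GFP+ and 60.1 CPM (1808 UMIs) in the GFP− library, 6.80-fold lower in GFP+ (5.71 to 8.15). It was 88.9 CPM (1482 UMIs) in progenitors and 8.30 CPM (124 UMIs) in GFP+ cones, 10.7-fold lower (8.92 to 13.0). Amacrine/horizontal cells had 27.3 CPM (59 UMIs), neurogenic cells 24.8 CPM (115 UMIs) and ganglion cells 20.1 CPM (75 UMIs), none of which differed from the next beyond counting error. Without the progenitor-marked cells, however, ganglion cells fell to 12.8 CPM (43 UMIs), and amacrine/horizontal cells then stood 2.31-fold above them (1.53 to 3.51).

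*Dkk3* differed from both in the postmitotic groups. It stood at 38.1 CPM (590 UMIs) in the GFP+ and 392 CPM (11797 UMIs) in the GFP− library, 10.3-fold lower in GFP+ (9.48 to 11.2), and at 527 CPM (8779 UMIs) in progenitors against 28.5 CPM (426 UMIs) in GFP+ cones, 18.5-fold lower (16.8 to 20.4). Amacrine/horizontal cells carried 439 CPM (948 UMIs), only 1.20-fold below progenitors (1.12 to 1.28), with at least 1 UMI in 60.9% of thinned cells against 79.2% of thinned progenitors. This placed *Dkk3* 4.90-fold above ganglion cells (4.32 to 5.57), whose level was 89.6 CPM (334 UMIs), and 8.44-fold above (7.15 to 10.0) when progenitor-marked cells were left out of both groups. Within the amacrine/horizontal group, the 286 cells with a *Ptf1a* UMI, the factor that sets amacrine and horizontal fate, had 457 CPM (916 UMIs) and the 22 without had 208 CPM (32 UMIs). Neurogenic cells were intermediate at 263 CPM (1219 UMIs), 2.00-fold below progenitors and on the edge of the 2-fold limit. Without their progenitor-marked cells they had 204 CPM (518 UMIs), 38.8% of the progenitor level (35.4 to 42.4%). GFP− precursors at 69.2 CPM (40 UMIs) and GFP− cones at 61.0 CPM (22 UMIs) both stood above GFP+ cones, 2.43-fold (1.71 to 3.36) and 2.14-fold (1.33 to 3.28). The 22 UMIs of GFP− cones lay in 13 of 67 cells, 8 of them in 1 cell. That second ratio thus depends strongly on 1 cell, which its interval does not cover.

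Among 1783 thinned progenitors, 91.0% had a UMI of *Sfrp2* and 79.2% one of *Dkk3*. Both were found in 72.4% and neither in 2.19%, and 18.2% had all 3 secreted inhibitors. Whether these genes were found together more often than their separate shares would give was not tested. Low counts in cones were set beside genes that mark progenitors, since free RNA in the droplets can add a few UMIs to any cell. As a percent of the GFP− progenitor level, GFP+ cones had 0.298% of *Fgf15*, 0.358% of *Hes1*, 1.78% of *Nr2e1* and 0.759% of the cyclin gene *Ccnd1*. *Sfrp2* was at 1.58% (1.42 to 1.75%), above the first 2 and *Ccnd1* and within the interval of *Nr2e1* (1.19 to 2.57%). Without the 4 cones that also passed the progenitor list it was at 1.37% (1.22 to 1.53%). *Nr2e1* was then at 1.54% (0.993 to 2.28%), *Ccnd1* at 0.486%, *Hes1* at 0.179% and *Fgf15* at 0.117%. With all cones, the other 2 inhibitors were as follows. *Dkk3* was at 5.41% (4.90 to 5.97%) and *Sfrp1* at 9.33% (7.71 to 11.2%), both above all 4. The part of free RNA in these levels was not tested. *Hes1*, *Nr2e1* and *Fgf15* are among the genes that set the progenitor group, so their percents are lowered by the grouping itself.

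**Figure D2:**
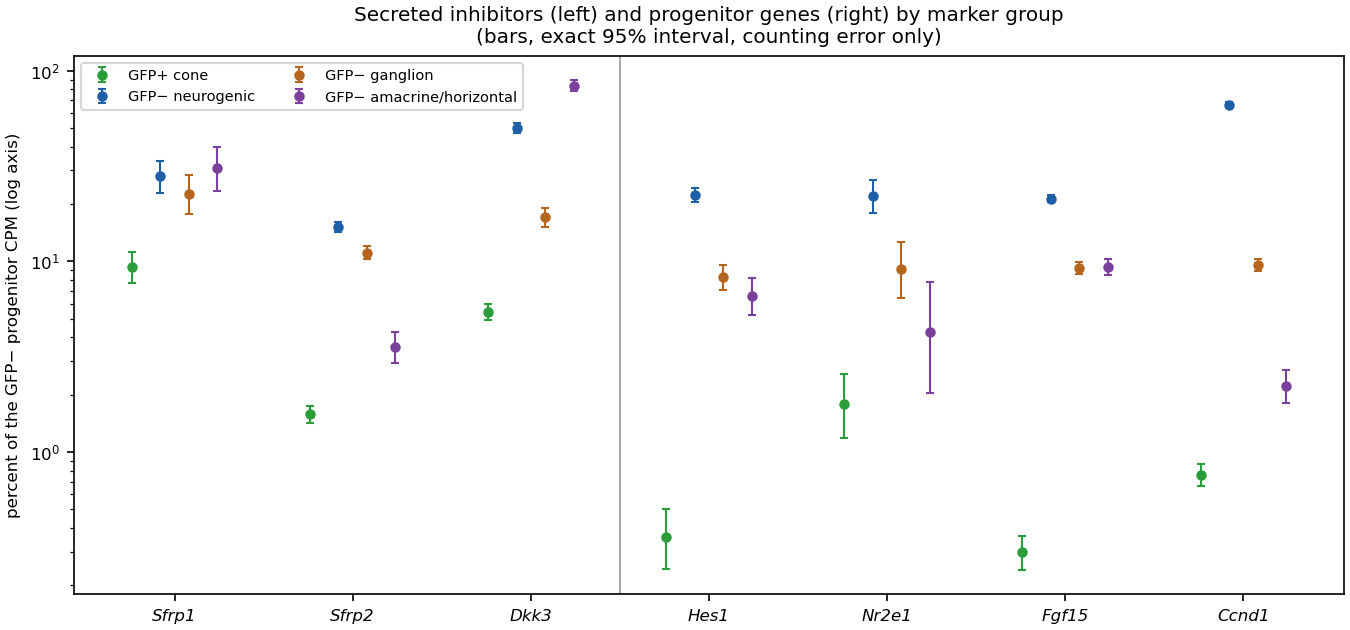
Level in 4 groups as a percent of the GFP− progenitor level (vertical log axis, exact 95% intervals) for the 3 secreted inhibitors on the left and 4 progenitor genes on the right, colours giving the group. In GFP+ cones *Sfrp1* and *Dkk3* lie above all 4 progenitor genes and *Sfrp2*, at 1.58%, above all but *Nr2e1*, and *Dkk3* in amacrine/horizontal cells reaches 83.4%.

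The receptors *Fzd3* and *Fzd5* went separate ways. *Fzd3*, a receptor used in axon guidance and planar cell polarity, stood at 21.9 CPM (340 UMIs, 19.7 to 24.4) in the GFP+ and 26.95 CPM (811 UMIs, 25.1 to 28.9) in the GFP− library. GFP+ cones at 21.8 CPM (325 UMIs) and progenitors at 22.6 CPM (377 UMIs) had a ratio of 0.962 (0.827 to 1.12), so that a difference beyond that interval was not seen at this depth. As UMIs per cell, not divided by each cell's total, all log2 ratios between these groups shift by −1.17, and that of *Fzd3* was −1.22. TMM scaling shifts them by −0.35, which takes the ratio of *Fzd3* below the lower end of 0.827. The near equality therefore depends on the scaling. Neurogenic cells at 25.5 CPM (118 UMIs) and ganglion cells at 24.95 CPM (93 UMIs) did not differ from the CPM of progenitors and GFP+ cones beyond counting error. Amacrine/horizontal cells stood apart at 62.6 CPM (135 UMIs), 2.77-fold above progenitors (2.26 to 3.38) and 2.51-fold above ganglion cells (1.91 to 3.30). In thinned cells a *Fzd3* UMI was found in 17.6% of amacrine/horizontal cells and in 6.84% to 8.75% of GFP− precursors, neurogenic cells, progenitors, ganglion cells and cones and of GFP+ cones.

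*Fzd5*, which encodes the Frizzled best known from early eye development, was a progenitor transcript. It had 5.68 CPM (88 UMIs) in the GFP+ and 23.9 CPM (719 UMIs) in the GFP− library, 4.21-fold lower in GFP+ (3.37 to 5.31). Progenitors had 34.6 CPM (577 UMIs), neurogenic cells 17.1 CPM (79 UMIs), ganglion cells 5.37 CPM (20 UMIs), GFP+ cones 4.82 CPM (72 UMIs) and amacrine/horizontal cells 3.24 CPM (7 UMIs). The step from progenitors to neurogenic cells was 2.03-fold (1.60 to 2.60), and the last 3 groups did not differ beyond counting error. Of the 79 neurogenic UMIs, 44 lay in progenitor-marked cells, and the other neurogenic cells stood at 13.8 CPM (35 UMIs). *Wls* was barely detected, with 10 UMIs in 10 GFP+ cells, all of them cones, and 9 UMIs in 8 GFP− cells. Of these 8 cells, 3 were among the 17 that passed a non-neural list, and 1 was among the 1788 progenitors. These 17 cells summed to 2039 CPM of the microglia list and 530 CPM of the endothelial list. They also had 1807 CPM of the progenitor and 660 CPM of the amacrine/horizontal list, so the group holds retinal transcripts too. The ratio of *Wls* between the gates was 2.16 with an interval of 0.788 to 5.999, so no direction was detectable at this depth.

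**Figure D3:**
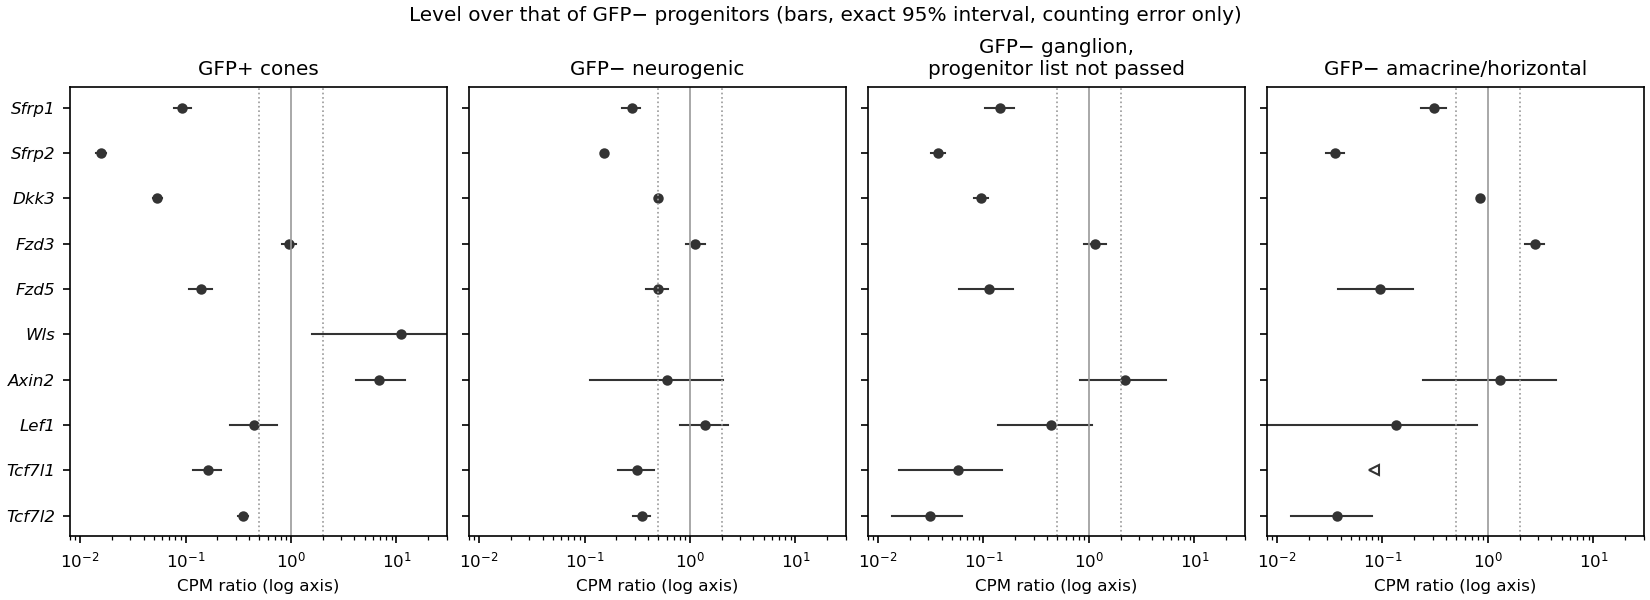
Ratio of each member's CPM to that in GFP− progenitors (horizontal log axis) in 4 groups, ganglion cells without those that passed the progenitor list, with exact 95% intervals cut at the edge of the panel and dotted lines at 2-fold. *Fzd3* alone lies to the right of 2-fold in amacrine/horizontal cells, and the open triangle is the upper end of the exact interval for *Tcf7l1* in amacrine/horizontal cells, where no UMI was found, and genes with under 10 UMIs are left out.

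The target gene *Axin2* was low throughout and higher in cones. It had 113 UMIs in 109 GFP+ cells (7.29 CPM, 6.01 to 8.76) and 41 UMIs in 39 GFP− cells (1.36 CPM, 0.978 to 1.85), 5.35-fold higher in GFP+ (3.71 to 7.85). Of the GFP+ UMIs, 110 were in cones, at 7.36 CPM, and no cell had more than 2. GFP− progenitors had 18 UMIs at 1.08 CPM, so that GFP+ cones were 6.82-fold above them (4.12 to 11.9). Ganglion cells had 10 UMIs at 2.68 CPM, amacrine/horizontal cells and neurogenic cells 3 UMIs each, GFP− precursors 2 and GFP− cones 1. In thinned cells the share with an *Axin2* UMI was 2.47% of GFP+ cones (1.94 to 3.08%) and 0.449% of progenitors (0.194 to 0.882%), and 2.94% and 0.895% unthinned. The 67 GFP− cones were too few to show whether cones outside the gate shared the level, as 1 UMI gives 2.77 CPM with an interval from 0.0702 to 15.4.

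Of the TCF/LEF genes, *Tcf7l2* was the most widespread. It had 26.2 CPM (406 UMIs) in the GFP+ and 48.9 CPM (1472 UMIs) in the GFP− library, 1.87-fold lower in GFP+ (1.67 to 2.09). With TMM scaling, which moved all log2 ratios of this comparison by −0.33, the log2 ratio went from −0.90 to −1.23 and past the 2-fold limit. Progenitors carried 75.6 CPM (1261 UMIs), and GFP+ cones 26.5 CPM (396 UMIs), 2.86-fold lower (2.55 to 3.20). Neurogenic cells, at 26.4 CPM (122 UMIs), did not differ from GFP+ cones beyond counting error. Of these 122 UMIs, however, 83 lay in progenitor-marked cells. Without those, neurogenic cells had 39 UMIs at 15.4 CPM (10.9 to 21.0), below the interval of GFP+ cones (23.95 to 29.2). Ganglion cells had 8.05 CPM (30 UMIs) and amacrine/horizontal cells 2.78 CPM (6 UMIs), 27.2-fold below progenitors (12.5 to 74.3). Cones thus stood 9.53-fold above amacrine/horizontal cells (4.34 to 26.1) and 3.29-fold above ganglion cells (2.27 to 4.94). Of the ganglion group's 30 UMIs, 22 lay in its 34 progenitor-marked cells. Without those, ganglion cells had 8 UMIs at 2.38 CPM, and GFP+ cones were 11.1-fold higher (5.56 to 25.8).

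*Tcf7l1*, whose product mainly represses targets in the absence of β-catenin, kept closer to progenitors. It stood at 3.29 CPM (51 UMIs) in the GFP+ and 13.1 CPM (393 UMIs) in the GFP− library, 3.97-fold lower in GFP+ (2.96 to 5.43). Progenitors had 20.6 CPM (343 UMIs) and neurogenic cells 6.48 CPM (30 UMIs, of which 22 in progenitor-marked cells). Ganglion cells had 3.76 CPM (14 UMIs, of which 10 in progenitor-marked cells) and GFP+ cones 3.35 CPM (50 UMIs). Among the 308 amacrine/horizontal cells no UMI was found, which allows a level of up to 1.39 CPM by the limit of 3 UMIs and 1.71 CPM by the exact interval. *Lef1* was scarce, with 24 UMIs in 24 GFP+ cells (1.55 CPM) and 97 UMIs in 88 GFP− cells (3.22 CPM), 2.08-fold lower in GFP+ (1.32 to 3.41). Its highest levels, 4.75 CPM (22 UMIs) in neurogenic cells and 3.42 CPM (57 UMIs) in progenitors, did not differ beyond counting error, and both stood above GFP+ cones at 1.54 CPM (23 UMIs), by 3.09-fold (1.64 to 5.79) and 2.22-fold (1.35 to 3.78).

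Set against progenitors within the GFP− gate, the members were mostly lower in neurogenic, ganglion and amacrine/horizontal cells. In neurogenic cells 6 of 9 members with enough UMIs were at least 2-fold lower and 0 higher, where 11.8% of 13435 genes were lower and 6.16% higher. In ganglion cells 7 of 9 were lower and 1, *Axin2*, higher, where 21% of 13557 genes were lower and 16.1% higher. In amacrine/horizontal cells 6 of 9 were lower and 1, *Fzd3*, higher, where 20.6% of 13427 genes were lower and 17.7% higher. These counts were 6 and 0, 7 and 1, and 6 and 1 again when the progenitor-marked cells were left out. Shares over all genes were not taken without those cells, so these repeated counts have no background beside them. The calls rest on the ratio alone, and not all in ganglion cells exceed counting error. There *Lef1* (6 UMIs) was at 47.1% of the progenitor level, with an interval of 16.6 to 108.9% that holds equality. Without the progenitor-marked cells, that of *Axin2* (8 UMIs, 220%, 82.8 to 532%) held equality too. The median log2 ratios of the members were −1.01, −2.40 and −2.31 in these comparisons, and those of all genes −0.03, −0.07 and 0.09. The comparisons share the same progenitors.

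Progenitors were also divided by the cell cycle. The 938 progenitors that passed a mitotic list were compared with the other 850, and 0 of 9 members reached 2-fold, where 3.48% of 13024 genes were higher and 3.19% lower. *Sfrp2* had 1469 CPM in mitotic and 1557 CPM in other progenitors, a ratio of 0.944 (0.920 to 0.967), and *Dkk3* 543 and 506 CPM, a ratio of 1.07 (1.03 to 1.12). *Sfrp1* was at 84.3 and 94.8 CPM (ratio 0.889, 0.802 to 0.986). *Tcf7l2* had 76.6 and 74.4 CPM, a ratio of 1.03 (0.920 to 1.15). *Axin2* had the ratio farthest from 1, at 7 and 11 UMIs (0.753 and 1.49 CPM, ratio 0.505, 0.166 to 1.43), an interval that holds 1. The count of 0 is near what the shares over all genes would give for 9 genes.

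The ciliary margin was approached through 170 progenitors with at least 2 UMIs of *Otx1*, *Msx1*, *Wfdc1* or *Cdon*, beside 1226 with none. Of 9 members only *Axin2* passed 2-fold, on 4 and 8 UMIs (2.31 and 0.715 CPM, ratio 3.24, 0.714 to 12.1), which is within counting error. Among 12673 genes, 3.14% were higher and 4.97% lower. *Sfrp2* was 1.23-fold higher (1.19 to 1.28), at 1766 against 1431 CPM, and *Sfrp1* 1.22-fold higher (1.03 to 1.43), at 104 against 85.1 CPM. Without the upper limit on genes the groups grew to 250 and 1437 cells. *Lef1* then had 22 UMIs at 7.37 CPM against 44 UMIs at 3.05 CPM, 2.42-fold higher (1.38 to 4.12), and *Tcf7l1* 84 and 275 UMIs, 1.48-fold higher (1.14 to 1.89). In the kept cells these 2 ratios were 1.33 (0.537 to 2.89) and 1.33 (0.933 to 1.87). Called doublets, 55 in the GFP− library and none of them among kept cells, were not left out of the larger groups. Their part was not tested.

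Along the dorsal to ventral axis, progenitors were split into 343 dorsal cells, with at least 2 UMIs of *Tbx5*, *Tbx3*, *Tbx2* or *Aldh1a1* and none of the ventral list, and 415 ventral cells, with at least 2 UMIs of *Vax2*, *Vax1* or *Aldh1a3* and none of the dorsal list. Of 8 members with enough UMIs, 1 was at least 2-fold higher dorsally and 0 lower, where 3.31% of 11806 genes were higher and 2.27% lower. *Sfrp1* stood at 112 CPM (365 UMIs) in dorsal and 55.2 CPM (226 UMIs) in ventral progenitors, 2.03-fold higher dorsally (1.72 to 2.41). *Sfrp2* leaned the other way, at 1491 and 1778 CPM, a dorsal over ventral ratio of 0.839 (0.809 to 0.870). *Dkk3* was 1.18-fold higher dorsally (1.11 to 1.26). *Fzd3* had 18.1 and 25.6 CPM, a ratio of 0.706 (0.504 to 0.981). *Axin2* had 7 UMIs in dorsal and 2 in ventral progenitors. *Lef1* had 17 and 12 UMIs, with a ratio of 1.78 (0.801 to 4.09).

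With the upper limit on genes lifted, 419 dorsal and 537 ventral progenitors gave *Axin2* 11 and 2 UMIs, a ratio of 7.53 (1.64 to 69.9). *Lef1* had 29 and 14 UMIs there, a ratio of 2.84 (1.45 to 5.81), while *Sfrp1* stayed at 2.00 (1.74 to 2.31). The 55 GFP− cells called as doublets, none of them among kept cells, were not left out of these larger groups. Their part in these ratios was not tested. With dorsal and ventral cells set at 1 UMI, the log2 ratio of *Sfrp1* was 0.78 in place of 1.02 and that of *Axin2* 1.41. GFP+ cones could be split in the same manner at 1 UMI, into 639 dorsal and 371 ventral cells, a split chosen after the values in progenitors were seen. *Axin2* had 27 UMIs in the dorsal and 6 in the ventral cones (9.52 and 3.60 CPM), 2.65-fold higher dorsally (1.07 to 7.84). *Sfrp2* had 24.0 and 37.8 CPM, a ratio of 0.635 (0.444 to 0.910), *Sfrp1* 28 and 9 UMIs, and *Lef1* 8 and 1 UMIs. Single cells held up to 8 *Sfrp2* UMIs in the dorsal and 9 in the ventral cones. Cones that did not pass the progenitor list had at most 3 each, so both sums include progenitor-marked cells. The ventral list summed to 35.2 CPM in GFP+ cones and 167.9 CPM in progenitors, the dorsal list to 61.6 and 127.5 CPM. The part of progenitor RNA in this split was not tested. *Tcf7l2* had 27.5 and 30.6 CPM (0.900, 0.624 to 1.31).

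**Figure D4:**
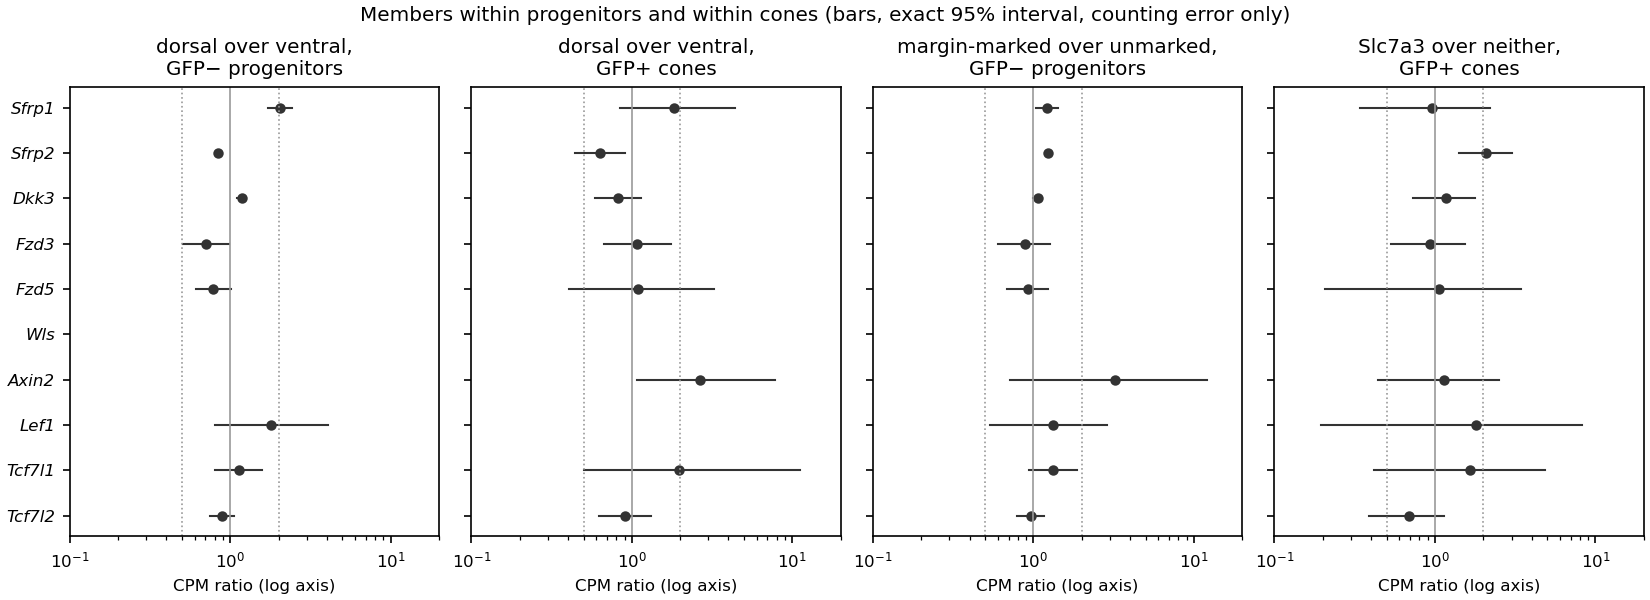
Ratio of each member's CPM (horizontal log axis) between dorsal and ventral progenitors, dorsal and ventral GFP+ cones, margin-marked and unmarked progenitors, and GFP+ cones with a *Slc7a3* UMI and those with neither *Slc7a3* nor *Fabp7*, with exact 95% intervals and dotted lines at 2-fold. *Sfrp1* lies at 2.03 in the first panel and *Axin2* at 2.65 in the second, and genes with under 10 UMIs are left out.

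GFP+ cones were also divided by *Slc7a3* and *Fabp7*, which mark the study's cone subpopulations, into 181 cells with a *Slc7a3* UMI, 1413 with a *Fabp7* UMI only and 2009 with neither. *Axin2* was spread over all of them, at 8.91 CPM (7 UMIs), 6.61 CPM (42 UMIs) and 7.81 CPM (61 UMIs). *Sfrp2* was 2.09-fold higher in *Slc7a3* cells than in those with neither (1.42 to 3.01), at 45.8 CPM (36 UMIs) against 21.9 CPM (171 UMIs). Single cells held up to 9 of these UMIs in the first group and up to 26 in the second. Cones that did not pass the progenitor list had at most 3 each, so both sums include progenitor-marked cells. Thinned, the log2 ratio of *Sfrp2* between these 2 groups was 0.93 in place of 1.07. *Fzd5* was 1.80-fold higher in *Fabp7* cells than in those with neither (1.09 to 3.02), and *Tcf7l2* had a ratio of 0.793 (0.641 to 0.978). The intervals of the other members in these splits all held 1.

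The rest of the pathway was read from 7 lists with 95 other genes, some of them on more than 1 list, of which those with at least 10 UMIs were counted. Between the gates, 15 of 72 such genes were at least 2-fold higher in GFP+ and 21 lower, and between GFP+ cones and progenitors 20 of 68 were higher and 16 lower, shares of 29.4% and 23.5% beside 29.3% and 15.9% over all genes. The counts by list that follow are from this comparison and stand against the same shares. The ligands and secretion genes gave 5 higher and 3 lower of 9. *Wnt9a* had the highest ratio of all, with 40 UMIs in GFP+ cones and 1 in progenitors (2.68 and 0.0600 CPM, 44.6-fold, 7.56 to 1806), and *Wnt7b* one of the lowest, with 1 and 91 UMIs. Of the other secreted inhibitors, 2 were higher and 2 lower of 5. The higher ones were *Sfrp4* (90 and 19 UMIs, 5.28-fold, 3.20 to 9.18) and *Frzb* (79 and 9 UMIs, 9.79-fold, 4.91 to 22.2), relatives of *Sfrp1* and *Sfrp2* that ran in the opposite direction.

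Of 19 receptors, 3 were higher and 5 lower. *Fzd2* had 59.0 CPM (881 UMIs) in GFP+ cones and 16.7 CPM (279 UMIs) in progenitors, 3.52-fold higher (3.08 to 4.04), opposite to *Fzd5*. Of 11 cytoplasmic genes 4 were higher and 0 lower, *Dvl1*, *Dvl3*, *Gsk3b* and *Btrc*, with log2 ratios of 1.19, 1.67, 1.29 and 1.55. TMM scaling shifts all log2 ratios of this comparison by −0.35, which takes *Dvl1* and *Gsk3b* under 2-fold. Against progenitors, 4 of the 11 were also higher and 0 lower in ganglion cells and in amacrine/horizontal cells. Over all genes 16.1% were higher and 21% lower in ganglion cells, and 17.7% and 20.6% in amacrine/horizontal cells. *Dvl3* was 2.79-fold and 4.99-fold higher in these 2 groups, and *Gsk3b* 2.72-fold in ganglion cells. *Dvl1* and *Btrc* stayed within 2-fold in ganglion cells. Of 11 nuclear genes, 2 were higher and 1 lower in GFP+ cones. *Tle1*, a Groucho corepressor, stood at 435 CPM (6505 UMIs) against 68.5 CPM (1142 UMIs), 6.35-fold higher (5.97 to 6.77), and *Tcf7*, the fourth TCF/LEF gene, at 9.44 CPM (141 UMIs) against 2.76 CPM (46 UMIs), 3.42-fold higher (2.44 to 4.88). *Tcf7* thus had the direction of *Axin2* and not that of *Lef1*, *Tcf7l1* and *Tcf7l2*. In margin-marked against unmarked progenitors *Tcf7* had 15 UMIs at 8.68 CPM against 23 UMIs at 2.05 CPM, 4.22-fold higher (2.05 to 8.45). In that comparison 2 of 58 other pathway genes were at least 2-fold higher and 4 lower. These shares of 3.45% and 6.9% are near the 3.14% and 4.97% over all genes.

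Other genes described as targets of the branch did not move as one with *Axin2*. Of 8 with enough UMIs, 2 were higher in GFP+ cones and 3 lower. *Myc* was 4.87-fold higher (3.45 to 7.02; 179 and 41 UMIs) and *Tcf7* as above. *Nkd1*, a feedback inhibitor, had 20.6 CPM (308 UMIs) against 109 CPM (1825 UMIs), 5.31-fold lower (4.71 to 6.01), and *Ccnd1* 16.5 against 2168 CPM, 132-fold lower (116 to 150). *Notum* had 5 and 29 UMIs. Of the 9 planar polarity genes, 3 were higher, *Prickle1* (157 and 5 UMIs, 35.0-fold, 14.7 to 109), *Celsr3* (297 and 11 UMIs, 30.1-fold, 16.6 to 61.0) and *Prickle2* (113 and 8 UMIs), and 3 were lower, among them *Celsr1* (1 and 105 UMIs). *Celsr3* was also 30.1-fold higher than in progenitors in ganglion cells and 24.6-fold in amacrine/horizontal cells. *Myc* was also 4.04-fold higher than in progenitors in ganglion cells (2.52 to 6.45) and 2.28-fold in neurogenic cells (1.34 to 3.82). *Fzd2*, *Sfrp4*, *Frzb*, *Tle1*, *Tcf7*, *Nkd1*, *Myc*, *Notum*, *Prickle2* and the 4 cytoplasmic genes were named after their values were seen.

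**Figure D5:**
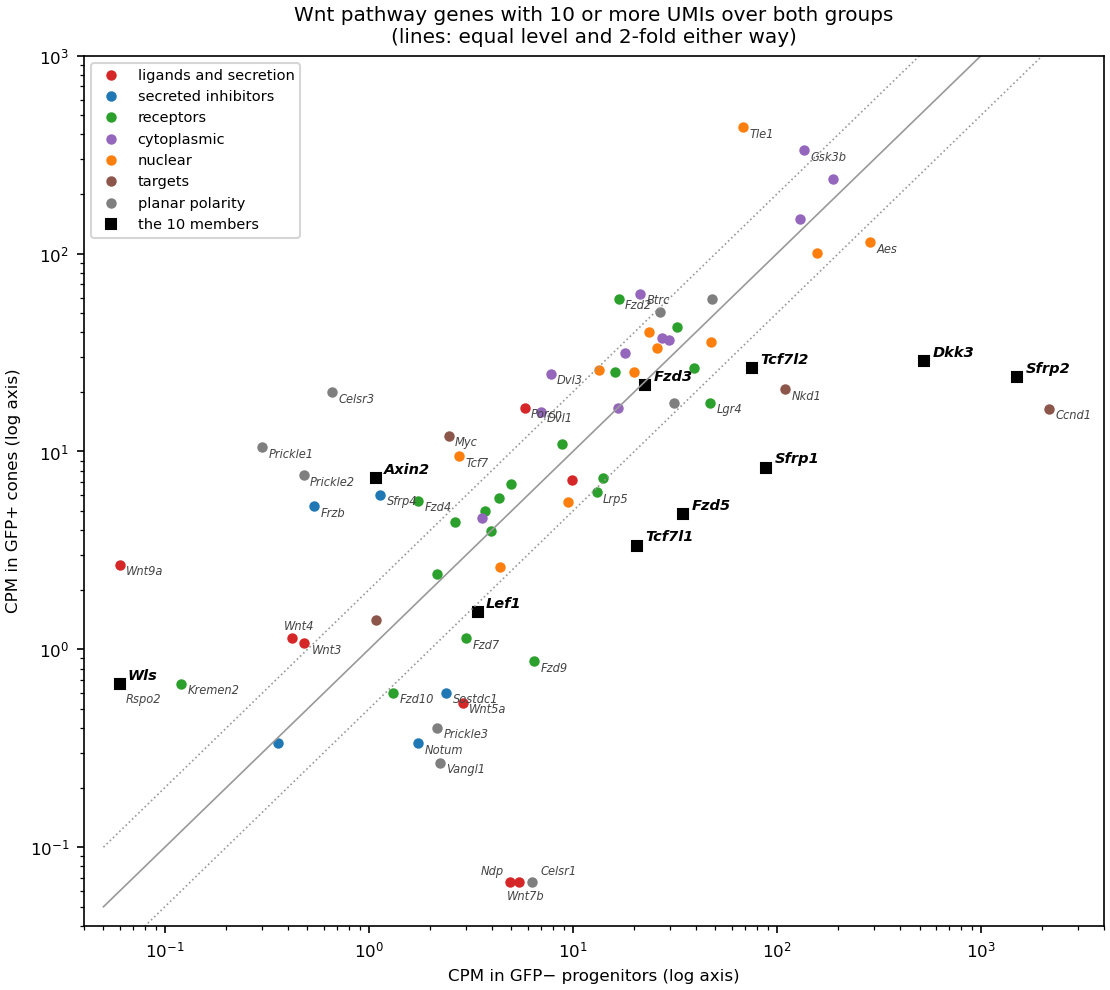
CPM in GFP+ cones (vertical log axis) against CPM in GFP− progenitors (horizontal log axis) for the members (black squares) and the other pathway genes (circles, coloured by role) with at least 10 UMIs over both groups, with a line at equal levels and dotted lines at 2-fold. *Sfrp2* and *Dkk3* lie at the far right below the line, and *Axin2* above it beside *Sfrp4*, *Frzb* and *Tcf7*, while the point of *Rspo2* lies under that of *Wls*.

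In the amacrine/horizontal group 4 of 6 other secreted inhibitors were at least 2-fold above progenitors and 2 below, where 17.7% of all genes were higher and 20.6% lower. Of the 4 higher calls, 2 rest on 6 and 4 UMIs in that group. Both lower calls rest on 1 UMI there, with intervals that hold 1. *Frzb* was at 14.8 CPM (32 UMIs) against 0.540 CPM (9 UMIs), 27.5-fold higher (12.8 to 65.4), and *Notum* at 13.4 CPM (29 UMIs) against 1.74 CPM (29 UMIs). Receptors gave 0 higher and 8 lower of 18 against the same shares, with *Fzd6* at 0 and 66 UMIs. *Apc2*, a neural relative of the destruction complex gene *Apc*, was 17.8-fold higher in amacrine/horizontal cells (13.0 to 24.5) and 18.9-fold in ganglion cells (14.2 to 25.4).

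The genes whose levels followed each member most closely were sought among 8001 genes over the 7 groups, by Pearson's r of log2(CPM + 10). For *Sfrp2* these were *Id3* (r = 0.996), *Col9a2* (0.988) and *Aldh1a3* (0.986), for *Dkk3* *Fat1* (0.976), *Hmga2* (0.974) and *Casp2* (0.965), and for *Sfrp1* *Ptprz1* (0.981), *E530001K10Rik* and *Fam19a1*. *Fzd3* was nearest to *BC049730* (0.991), *Fzd5* to the ribosomal protein gene *Rps2* (0.983), *Tcf7l1* to *Cyr61* (0.978) and *Tcf7l2* to *Galk1* (0.987). The 7 points share 2 libraries, and the best of so many genes is bound to be high, so these are given as a description. *Axin2*, *Lef1* and *Wls* had under 200 UMIs and were left out.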

How the data were processed

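The deposited files hold raw counts of UMIs per gene and cell, made by the authors with Cell Ranger 2.1.1 on the mm10 (GRCm38) reference from 10x 3′ v2 libraries, 1 per sort gate, with called barcodes only. The mitochondrial limit, printed in the study as a percent, was read as a fraction of 0.25. The 10 members, the marker lists and the pathway lists were chosen with earlier results of these data known. Named genes are the members, the 3 highest and 3 lowest pathway genes per comparison, the 3 nearest profiles (genes of at least 20 CPM in 1 group, r over named groups of at least 50 cells), and others where said. Counts were summed per group, with exact Poisson intervals of CPM, exact binomial intervals of ratios and Clopper-Pearson intervals of shares (95%). PCR copies are collapsed by UMI, and all of these cover counting error only. A gene was counted as higher or lower past 2-fold with at least 10 UMIs over both groups. List medians used a pseudocount of 0.5 UMIs. Scrublet called 4 of 3728 and 55 of 4445 deposited cells as doublets, of which 3 and 0 were among kept cells. Called doublets were left in. Interval code was tested on simulated data. Python 3.11.15, numpy 2.4.6, scipy 1.17.1, scanpy 1.11.5 (Scrublet) and edgeR 4.0.16 (TMM factors only) were used.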

Additional observations from a re-analysis of the deposited data

How the results depend on the processing

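Of 520 values of single members under alternative settings, 433 stayed within the interval of the main value and 86 left it. The remaining 1 changed direction, which was counted only for members past 2-fold in the main setting. Changes of sign in members within 2-fold are thus among the 433 and 86. The 1 reversed value was *Lef1* in ganglion cells against progenitors, whose log2 ratio of −1.09 (6 and 57 UMIs) became 0.12 with cells thinned to 3200 UMIs. Leaving out called doublets, a mitochondrial limit of 0.10 and leaving out shared barcodes moved 0 of 48, 0 of 48 and 0 of 10 values. The first of these removed only 3 kept GFP+ cells and no kept GFP− cell. The wide intervals of *Wls*, *Axin2* and *Lef1* are also hard to leave. The count of members higher in GFP+ than GFP− went from 2 to 1 with TMM factors, with the mean of per-cell CPM, with mean UMIs per cell, with thinning and at a minimum of 50 UMIs, and that in GFP+ cones over progenitors from 2 to 1 with thinning and at 50 UMIs. In ganglion cells the count higher went from 1 to 0 with thinning, at 50 UMIs and with marker lists passing at 2 UMIs. At a minimum of 1 UMI it was 1 in neurogenic and 2 in amacrine/horizontal cells. In margin-marked progenitors it was 2 without the upper limit on genes and 0 at 50 UMIs, and the count lower was 1 at 1 UMI and with margin markers at 3 UMIs. Between dorsal and ventral progenitors the count higher dorsally was 3 without that limit (main 1). Shares over all genes at these alternative settings were not taken, so the counts have no background beside them.

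The other pathway genes higher in GFP+ rose from 15 to 26 at 1.5-fold. At a minimum of 1 UMI the genes lower were 27 in GFP+ cones (main 16), 27 in neurogenic (12), 36 in ganglion (20) and 40 in amacrine/horizontal cells (22), and those higher in neurogenic cells were 9 (5), as at 1.5-fold. At 50 UMIs the genes lower were 5, 12 and 14 in neurogenic, ganglion and amacrine/horizontal cells, and those higher 3 in neurogenic and 9 in amacrine/horizontal cells (15). Shares over all genes were taken at the main setting only, so these counts are not read as a result about the pathway. At a minimum of 1 UMI, a gene with 1 UMI in progenitors and none in the other group counts as lower. The *Sfrp2* log2 ratio of ganglion cells to progenitors was −1.93 with lists passing at 2 UMIs and −4.56 at 5 UMIs (main −3.17), and that of GFP+ cones −5.36 without the upper limit on genes (main −5.99). *Dkk3* in neurogenic cells was at −0.89 without that limit. The cause of these moves was not tested.

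Depth limits *Wls*, *Axin2* and *Lef1* most, and with 1 library per gate no biological spread is known. No paired analysis was possible because each gate has 1 library.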
